A study of Caenorhabditis elegans with 72 samples.

Results

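*ilc-17.1* mutants were compared directly with *malt-1* mutants, both carrying the *npr-1* mutation as well, so that the comparison set loss of the IL-17 ligand against loss of a signaling protein that acts behind its receptor. Genes were taken from the direct comparison of these 2 genotypes in the deposited table when their level was at least 1 FPKM (fragments normalized to transcript length and to the number of mapped fragments) in either genotype. This rule kept 14135 of the 46624 genes of the table. Of these, 13460 had a level above 0 in both genotypes, including 11969 protein-coding genes, and for them the ratio of *ilc-17.1* over *malt-1* mutants was computed. A further 305 genes were listed at 0 in *ilc-17.1* mutants and 370 in *malt-1* mutants, of which 13 and 10 were protein-coding, and for these no ratio was given. At the limit of the rule, *W01C8.1*, with 0.541 FPKM in *ilc-17.1* and 1.00 FPKM in *malt-1* mutants, was just inside, and *glb-16*, with 0.9997 FPKM in *ilc-17.1* mutants and 0.882 FPKM in *malt-1* mutants, was just outside.

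Whole *C. elegans* were sampled at the late L4 stage, the last larval stage, as progeny of 10 gravid adults left to lay eggs for 2 h on each plate. The genotypes were *ilc-17.1; npr-1*, *nfki-1; npr-1* and *malt-1; npr-1* double mutants and *npr-1* animals, all with the strain background AX204, and they are called *ilc-17.1*, *nfki-1* and *malt-1* mutants and *npr-1* animals here. The labels list 18 samples of each genotype and do not give the alleles. Of the 18 *ilc-17.1* samples, 3 are second runs, so that they hold 15 libraries, against 18 libraries for *malt-1* mutants. The methods name 5 biological replicates for *ilc-17.1* mutants and 6 for *malt-1* mutants. The *nfki-1* mutants and *npr-1* animals are cited only to place a gene's level. The table holds 1 value per genotype, so that neither the spread between replicates nor the depth is known and no difference below could be tested. A difference of 1.5-fold is used as a mark of size, not of significance.

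IL-17 cytokines are secreted proteins best known in mammals for driving inflammation. In *C. elegans*, ILC-17.1 acts on neurons through the receptors ILCR-1 and ILCR-2, the adaptor ACTL-1 and the IRAK-like kinase PIK-1. MALT-1 is a paracaspase, a caspase-like protease that also serves as a scaffold, and NFKI-1 resembles the IκB proteins of NF-κB signaling. *npr-1* encodes a neuropeptide receptor, and its loss makes animals aggregate and respond strongly to oxygen.

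The mutated genes were examined first. *malt-1* (chromosome II, 6928770 to 6951300, a locus shared by 4 genes of the table) had 8.31 FPKM in *ilc-17.1* mutants against 4.04 FPKM in *malt-1* mutants, a 2.05-fold difference, and 6.49 FPKM in *npr-1* animals. Its level was thus lowest in the genotype labelled *malt-1*. *ilc-17.1* (chromosome X, 12705624 to 12813947) had 0.157 FPKM in *ilc-17.1* mutants, 0.227 FPKM in *malt-1* mutants and 0.310 FPKM in *npr-1* animals. It was lowest in the genotype labelled *ilc-17.1* but under 1 FPKM throughout, at a locus shared with other genes, so it gives only a weak check of the label. *nfki-1* (chromosome X, 15355238 to 15363861) had 23.5 FPKM in *ilc-17.1* and 18.2 FPKM in *malt-1* mutants, against 8.93 FPKM in *nfki-1* mutants. The genome build of these coordinates is not named in the sources used here.

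The other genes of the pathway differed little between the mutants. The receptor gene *ilcr-1* had 8.44 FPKM in *ilc-17.1* and 7.83 FPKM in *malt-1* mutants, and *ilcr-2* had 34.4 and 29.1 FPKM in the same order. The adaptor gene *actl-1* had 6.12 FPKM in *ilc-17.1* and 6.31 FPKM in *malt-1* mutants. The kinase gene *pik-1* had 11.1 FPKM in *ilc-17.1* and 10.1 FPKM in *malt-1* mutants. Only *malt-1* itself passed 1.5-fold among the 6 members with a described level, and the receptor gene *npr-1* had 0.588 FPKM in *ilc-17.1* and 0.585 FPKM in *malt-1* mutants. In the plot of pathway genes by genotype, *malt-1* and *nfki-1* are the members with a single low genotype.

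**Figure D1:**
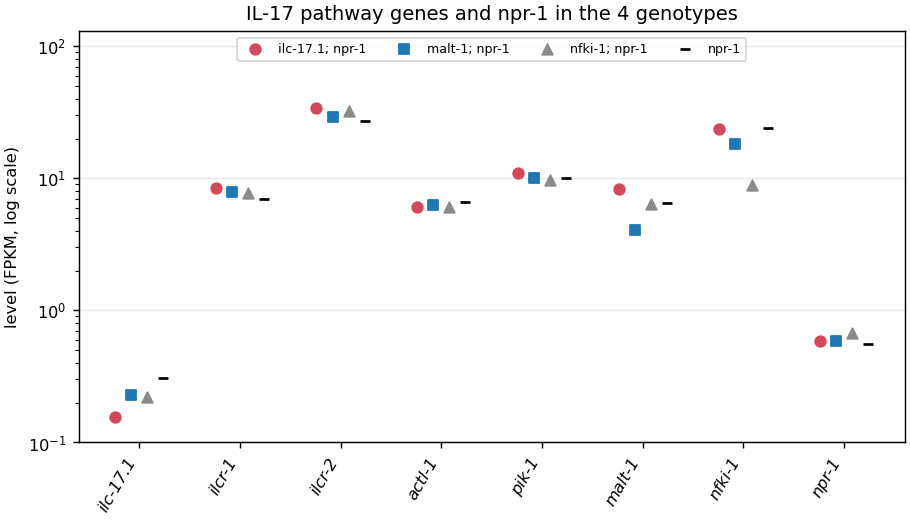
Levels in FPKM, on a log axis, of the IL-17 pathway genes and *npr-1* in the 3 double mutants and in *npr-1* animals, 1 value per genotype and no error. *malt-1* is lowest in *malt-1* mutants (4.04 FPKM) and *nfki-1* in *nfki-1* mutants (8.93 FPKM), while *ilcr-1*, *ilcr-2*, *actl-1* and *pik-1* lie close together.

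Most genes had similar levels in the mutants. The median log2 ratio of *ilc-17.1* over *malt-1* mutants was 0.00014 over all genes with a ratio and -0.01 over protein-coding genes, and 74.1% of the protein-coding genes differed by less than 0.32 on the log2 scale. Over all genes, 852 were at least 1.5-fold higher in *ilc-17.1* mutants (6.33%) and 516 at least 1.5-fold lower (3.83%). Among protein-coding genes, 450 were at least 1.5-fold higher (3.76%) and 320 at least 1.5-fold lower (2.67%), and 111 and 82 differed 2-fold. Higher levels made up 62.3% of the genes past 1.5-fold. The FPKM of all genes summed to a smaller total for *ilc-17.1* mutants, 1.22e+06, than for *malt-1* mutants, 1.38e+06. With both genotypes set to the same total every log2 ratio moved up by 0.17 and the share became 83.4%. The cytosolic ribosomal protein genes, described below, made up 350735 FPKM of the smaller total and 451197 FPKM of the larger. Equal totals thus depend in part on this 1 group, and they move a median that was already at 0.00014.

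Genes other than protein-coding ones spread more widely. Of 1491 such genes, 27.0% were at least 1.5-fold higher and 13.1% at least 1.5-fold lower in *ilc-17.1* mutants. They included 618 genes annotated as ncRNA, with a median transcript length of 147 bases. Among the protein-coding genes past 1.5-fold, 269 of the 450 higher and 160 of the 320 lower ones were under 5 FPKM in both genotypes. The protein-coding genes as a whole included 2222 of 11969 at such levels.

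The ratio also moved with transcript length. In 8 equal classes of protein-coding genes by the length of the longest annotated transcript, the median log2 ratio went up in every step, with -0.21 in the class up to 571 bases and 0.24 in the class from 2803 bases. In the longest class, 83 genes were at least 1.5-fold higher in *ilc-17.1* mutants and 0 lower, and in the shortest class 105 were higher and 159 lower. The part of length in the results below was not tested, and a length-adjusted log2 ratio, which is the ratio minus the median of 1 of 20 classes of like length, is therefore given beside the gene groups below. With this adjustment 508 protein-coding genes (4.24%) were higher and 202 (1.69%) lower by 1.5-fold.

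**Figure D2:**
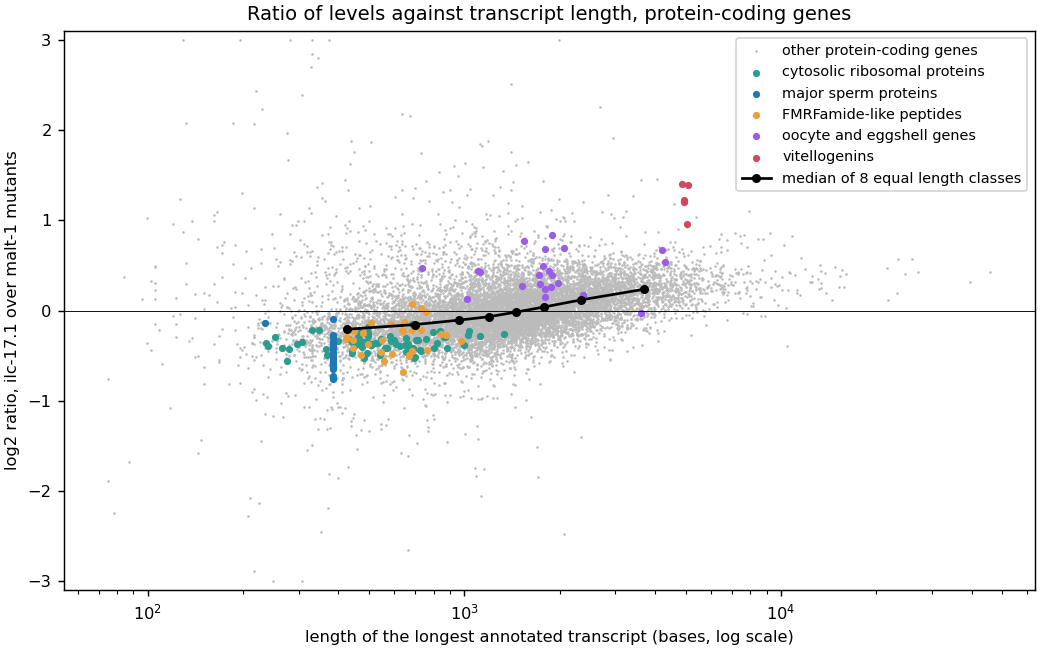
Log2 ratio of the level in *ilc-17.1* over *malt-1* mutants for each protein-coding gene (grey), against transcript length in bases on a log axis, with 5 gene groups in color and the median of 8 equal length classes in black; ratios beyond 3 are drawn at 3. The class medians run between -0.21 for the shortest and 0.24 for the longest class, and the vitellogenins lie above the median of genes of their length while the cytosolic ribosomal proteins lie below it.

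The vitellogenins had the largest median ratio of the 51 gene lists. These yolk proteins are made in the intestine of the adult hermaphrodite and taken up by growing oocytes. All 6 genes were at least 1.5-fold higher in *ilc-17.1* mutants, where 3.76% of protein-coding genes were, with a median log2 ratio of 1.22 and a length-adjusted median of 0.94. All 6 stayed past 1.5-fold with the adjustment, compared with 4.24% of protein-coding genes. Summed over the 6 genes, the level was 1522 FPKM in *ilc-17.1* mutants, 1465 FPKM in *nfki-1* mutants, 699 FPKM in *malt-1* mutants and 465 FPKM in *npr-1* animals.

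Among single yolk genes, *vit-5* (chromosome X, 3403471 to 3408603) had 169 FPKM in *ilc-17.1* mutants against 63.9 FPKM in *malt-1* mutants. *vit-1* (chromosome X, 7727889 to 7733168) had 125 FPKM in *ilc-17.1* mutants against 47.3 FPKM in *malt-1* mutants, and both genes differed 2.64-fold. The difference was smallest for *vit-6* (chromosome IV, 8261007 to 8266462), which also had the highest level, with 680 FPKM in *ilc-17.1* mutants against 350 FPKM in *malt-1* mutants, 1.95-fold. Second in level was *vit-2* (chromosome X, 5101032 to 5106173), which had 473 FPKM in *ilc-17.1* mutants against 206 FPKM in *malt-1* mutants. *vit-3* (chromosome X, 3567355 to 3572566) had 45.7 FPKM in *ilc-17.1* mutants against 19.5 FPKM in *malt-1* mutants, and *vit-4* (chromosome X, 3558839 to 3563991) had 29.4 against 12.7 FPKM in the same order. Several *vit* genes are close copies, between which reads could have been split, so the values of single members are uncertain.

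In *npr-1* animals each of the 6 *vit* genes was below both mutants, with 38.1 FPKM for *vit-5* and 217 FPKM for *vit-6*. The *malt-1* mutants thus lay between *npr-1* animals and *ilc-17.1* mutants for the whole family. The *nfki-1* mutants lay between *ilc-17.1* and *malt-1* mutants for 4 members and above both for *vit-2*, at 480 FPKM, and *vit-6*, at 714 FPKM. Of 9 measured genes for the yolk receptor and factors that control *vit* genes, 7 had a positive ratio and 0 passed 1.5-fold. Their median log2 ratio was 0.24, and 0.11 after length adjustment, and with equal totals it was 0.41 and 2 passed 1.5-fold. The most abundant, the homeodomain factor gene *unc-62*, had 74.6 FPKM in *ilc-17.1* and 62.4 FPKM in *malt-1* mutants.

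Genes of oocytes and the eggshell were also higher in *ilc-17.1* mutants. Of 23 described members, 22 had a positive ratio and 5 were at least 1.5-fold higher, against 3.76% of protein-coding genes, with a median log2 ratio of 0.40 and a length-adjusted median of 0.35. *cpg-1*, which encodes an eggshell chondroitin proteoglycan, had 103 FPKM in *ilc-17.1* mutants against 57.5 FPKM in *malt-1* mutants. *oma-2*, for an RNA-binding protein of oocyte maturation, had 27.5 FPKM in *ilc-17.1* mutants against 16.07 FPKM in *malt-1* mutants. *puf-5*, for another RNA-binding protein of oocytes, had 37.4 against 23.1 FPKM in the same order. *egg-1*, for a protein of oocytes needed for fertilization, had 32.3 FPKM in *ilc-17.1* and 20.1 FPKM in *malt-1* mutants. For 14 of the 23 members *npr-1* animals lay between the mutants, with *npr-1* levels of 78.1 FPKM for *cpg-1* and 31.7 FPKM for *puf-5*.

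Sperm genes went the other way. All 27 described major sperm protein genes, which encode cytoskeletal and signaling proteins of sperm, were lower in *ilc-17.1* mutants, and 9 of them by at least 1.5-fold, against 2.67% of protein-coding genes. Their median log2 ratio was -0.51, and -0.29 after length adjustment, with which 0 of them remained past 1.5-fold. *msp-142* had 91.1 FPKM in *ilc-17.1* mutants against 155 FPKM in *malt-1* mutants. *msp-64* had 144 FPKM in *ilc-17.1* mutants against 239 FPKM in *malt-1* mutants. *msp-19* had 38.6 against 60.6 FPKM in the same order. *msp-79* was near the lower limit, with 0.962 FPKM in *ilc-17.1* and 1.61 FPKM in *malt-1* mutants. Members of this family are nearly identical, so that single values are uncertain.

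For 22 of the 27 *msp* genes the *npr-1* animals lay between the mutants, with a median log2 ratio to *npr-1* animals of -0.35 in *ilc-17.1* mutants and 0.16 in *malt-1* mutants. All 27 were higher in *nfki-1* than in either of the other mutants. Of 55 other sperm genes, 47 had a negative ratio, with a median of -0.29 and a length-adjusted median of -0.21. *spe-46* had 29.4 FPKM in *ilc-17.1* mutants against 45.6 FPKM in *malt-1* mutants, and *spe-36* was the single member past 1.5-fold upward, with 1.59 FPKM in *ilc-17.1* and 1.00 FPKM in *malt-1* mutants.

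Genes of germ cells, covering stem cells, meiosis and P granules, had a median log2 ratio of -0.16 and a length-adjusted median of -0.22, and 0.01 with both genotypes set to equal totals, so their direction depends on the scaling. Of 24 members 0 passed 1.5-fold. The most abundant, *him-8*, which encodes a factor for pairing of the X chromosomes, had 237 FPKM in *ilc-17.1* and 228 FPKM in *malt-1* mutants. Since whole animals were measured, fewer cells of a type and less RNA per cell cannot be told apart for any of these groups. The sources used here also give no stage finer than late L4 for each genotype. The part of a difference in stage in the yolk, oocyte and sperm levels was not tested.

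**Figure D3:**
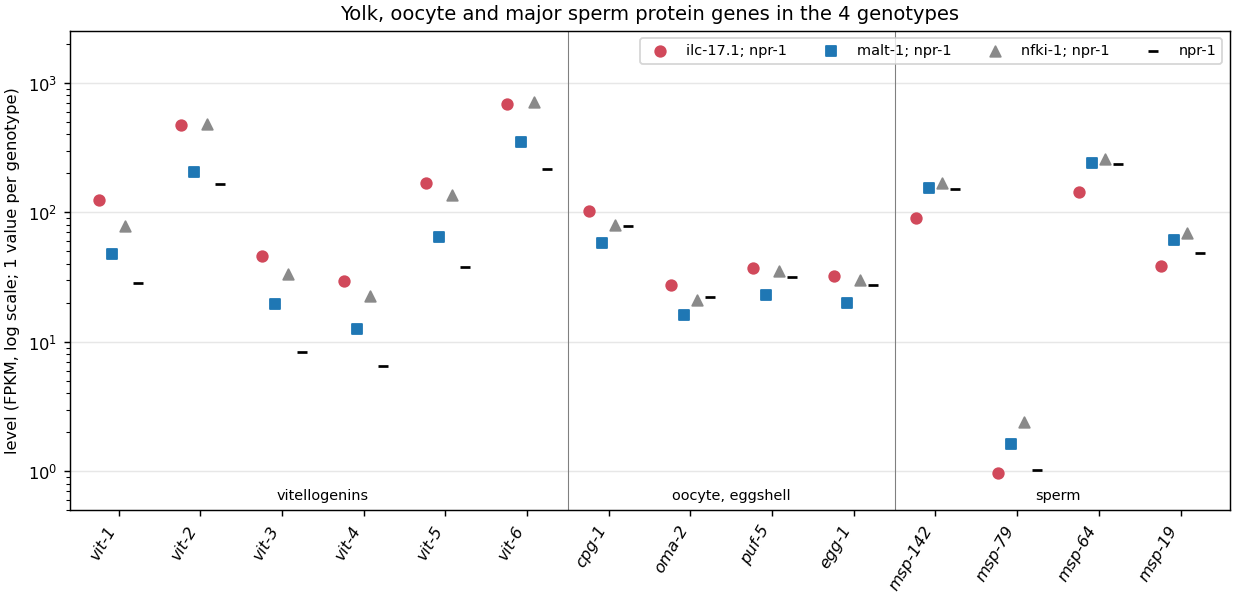
Levels in FPKM, on a log axis, of the 6 *vit* genes, 4 oocyte and eggshell genes and 4 *msp* genes in the 3 double mutants and in *npr-1* animals, with 1 value per genotype and no error. Each *vit* and oocyte gene is higher in *ilc-17.1* than in *malt-1* mutants (*vit-6* 680 against 350 FPKM), and each *msp* gene is lower (*msp-64* 144 against 239 FPKM).

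Genes for FMRFamide-like peptides, which neurons secrete, tended to be lower in *ilc-17.1* mutants, as did genes with short transcripts in general. Of 30 genes for FMRFamide-like peptides, 28 had a negative ratio, with a median log2 ratio of -0.31 and a length-adjusted median of -0.14. A single member passed 1.5-fold, *flp-34*, with 38.4 FPKM in *ilc-17.1* mutants against 61.6 FPKM in *malt-1* mutants and 53.9 FPKM in *npr-1* animals. With length adjustment, and with equal totals, 0 of the 30 passed 1.5-fold. Of the 30 genes, 27 had their highest level of these 3 genotypes in *npr-1* animals, with a median log2 ratio to *npr-1* animals of -0.56 in *ilc-17.1* and -0.25 in *malt-1* mutants.

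The neuropeptide-like proteins had a median log2 ratio of -0.16 over 52 genes, which became 0.02 with length adjustment and 0.01 with equal totals, so their direction depends on the scaling. Of these genes, 2 were at least 1.5-fold lower and 0 higher, near the 2.67% of protein-coding genes that were lower, and with length adjustment 1 was lower and 1 higher. *nlp-51* had 10.2 FPKM in *ilc-17.1* mutants against 21.5 FPKM in *malt-1* mutants, and *nlp-70* had 4.36 against 7.31 FPKM in the same order. Among 21 insulin-like peptide genes, whose products act on the DAF-2 receptor, the median was -0.28 and the length-adjusted median -0.12, with 1 higher and 2 lower by 1.5-fold, against 3.76% and 2.67% of protein-coding genes. *ins-28* had 9.56 FPKM in *ilc-17.1* mutants against 16.4 FPKM in *malt-1* mutants, and *ins-25* had 0.540 against 1.13 FPKM in the same order. *ins-21* went the other way, with 1.72 FPKM in *ilc-17.1* and 0.955 FPKM in *malt-1* mutants.

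Genes for peptide processing and release had a median log2 ratio of 0.05 over 12 members, which became -0.10 with length adjustment, so their direction depends on the scaling, and 0 passed 1.5-fold. Of these, *bli-4*, for a proprotein convertase, had 129.4 FPKM in *ilc-17.1* and 115.1 FPKM in *malt-1* mutants. The synaptic vesicle machinery had a median of 0.20 over 20 members and 0.03 with length adjustment. Its single member past 1.5-fold was *unc-10*, for a protein of the presynaptic active zone, with 3.82 FPKM in *ilc-17.1* and 2.52 FPKM in *malt-1* mutants. With length adjustment 0 of the 20 passed 1.5-fold, and with equal totals 4 were higher. The 16 genes for transmitter synthesis and loading had a median of -0.03, which was -0.07 with length adjustment and 0.14 with equal totals, and 2 were higher by 1.5-fold, against 3.76% of protein-coding genes. Among them *tbh-1*, which encodes the enzyme that makes octopamine, had 14.8 FPKM in *ilc-17.1* mutants against 7.25 FPKM in *malt-1* mutants, 16.17 FPKM in *nfki-1* mutants and 8.83 FPKM in *npr-1* animals. *unc-46*, for a protein that sorts the GABA transporter, had 2.03 against 1.30 FPKM in *ilc-17.1* and *malt-1* mutants.

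Genes of immunity moved in both directions. The 7 members of the p38 cascade, the TIR-domain and MAP kinase pathway of pathogen defense, had a median log2 ratio of 0.15, which was -0.0012 after length adjustment, and 0 passed 1.5-fold. Their most abundant member, the transcription factor gene *atf-7*, had 99.2 FPKM in *ilc-17.1* and 85.7 FPKM in *malt-1* mutants. Among 42 genes for lysozymes, saposins and antimicrobial peptides, 2 were at least 1.5-fold higher and 6 lower, against 3.76% and 2.67% of protein-coding genes, and the median of -0.17 became -0.01 with length adjustment, with which 5 were higher and 4 lower. *lys-7*, a lysozyme gene, had 49.2 FPKM in *ilc-17.1* mutants, against 93.9 FPKM in *malt-1* mutants, with 107 FPKM in *nfki-1* mutants and 87.2 FPKM in *npr-1* animals. For *lys-7* the *ilc-17.1* mutants were the low genotype.

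The saposin-like genes *spp-28*, with 4.72 FPKM in *ilc-17.1* and 9.90 FPKM in *malt-1* mutants, *spp-29*, with 0.532 and 1.13 FPKM, and *spp-9*, with 0.720 and 1.27 FPKM, were lower as well. *fipr-20*, of a family related to a fungus-induced peptide, was higher, with 7.499 FPKM in *ilc-17.1* mutants against 0.723 FPKM in *malt-1* mutants, and *fipr-8* had 12.6 against 8.03 FPKM in the same order. Of 77 C-type lectin genes, 3 were at least 1.5-fold higher and 3 lower, near the 3.76% and 2.67% of protein-coding genes. Their median of -0.06 became -0.01 with length adjustment and 0.11 with equal totals. *clec-87* had 116 FPKM in *ilc-17.1* mutants against 71.2 FPKM in *malt-1* mutants. *clec-266* had 2.55 against 1.05 FPKM and *clec-71* 5.18 against 3.36 FPKM in *ilc-17.1* and *malt-1* mutants. Lower were *clec-242* at 3.12 against 5.47 FPKM, *clec-243* at 0.613 against 1.30 FPKM and *clec-224* at 1.23 against 2.03 FPKM. Of 9 genes of the *pals* family and the intracellular pathogen response, 1 was at least 1.5-fold higher, against 3.76% of protein-coding genes. This was *pals-6*, with 2.74 FPKM in *ilc-17.1* and 1.77 FPKM in *malt-1* mutants. The median of these 9 was 0.15, and 0.21 with length adjustment, with which 4 were higher, against 4.24% of protein-coding genes. Their levels were low, at most 8.08 FPKM. With a minimum of 5 FPKM 2 were described and 0 passed. Among 9 *dod* and *irg* genes 0 passed, with a median of 0.07 and 0.10 after adjustment, and *irg-8* had 415 FPKM in *ilc-17.1* and 461 FPKM in *malt-1* mutants.

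Enzymes of central metabolism were close in the mutants. Glycolytic enzymes had a median log2 ratio of -0.03 over 18 genes, and those of the TCA and glyoxylate cycles -0.05 over 21, which became -0.05 and -0.0042 with length adjustment and 0.14 and 0.12 with equal totals, and 0 of either group passed 1.5-fold. *aldo-2*, for aldolase, had 865 FPKM in *ilc-17.1* and 914 FPKM in *malt-1* mutants, and *cts-1*, for citrate synthase, had 793 and 838 FPKM. The 11 desaturase and elongase genes had a median of -0.19, and -0.17 after length adjustment. *fat-6*, which encodes a stearoyl-CoA desaturase, had 444 FPKM in *ilc-17.1* mutants against 667 FPKM in *malt-1* mutants, 1.502-fold lower, with 562 FPKM in *nfki-1* mutants and 497 FPKM in *npr-1* animals, while the other 10 stayed within 1.5-fold. It lay at the mark, and 0 of the 11 passed with length adjustment, with equal totals or with values from the comparisons with *npr-1* animals. Genes for lipases and fatty acid oxidation had a median of 0.0050 over 49 members, and -0.02 after length adjustment. Of these, *acs-7*, for an acyl-CoA synthetase, was higher, with 18.5 FPKM in *ilc-17.1* and 12.2 FPKM in *malt-1* mutants, and *acdh-5*, for an acyl-CoA dehydrogenase, was lower, with 10.0 and 15.5 FPKM.

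The genes of detoxification and stress past 1.5-fold were mostly at low levels. With a minimum of 5 FPKM, 0 of 12 cytochrome P450 genes and 0 of 16 glutathione transferase genes passed. Of 25 cytochrome P450 genes, with a median of 0.09 and 0.06 after length adjustment, 3 were higher, against 3.76% of protein-coding genes, namely *cyp-13A4* with 4.27 FPKM in *ilc-17.1* and 2.32 FPKM in *malt-1* mutants, *cyp-14A4* with 1.06 and 0.617 FPKM, and *cyp-13A12* with 2.04 and 1.35 FPKM. Of 25 glutathione transferase genes, with a median of -0.23 and -0.08 after adjustment, 2 were lower, against 2.67% of protein-coding genes, namely *gst-19* with 1.18 FPKM in *ilc-17.1* and 3.08 FPKM in *malt-1* mutants and *gst-40* with 2.87 and 4.63 FPKM. The 23 UDP-glycosyltransferase genes had a median of 0.09, and 0.02 after adjustment, and held 0 past 1.5-fold, and *ugt-22* had 177 FPKM in *ilc-17.1* and 165 FPKM in *malt-1* mutants. Genes of oxidative and metal defense had a median of -0.15 over 17 members, which was -0.03 after adjustment and 0.02 with equal totals. Of the 17, 1 was higher and 1 lower by 1.5-fold, against 3.76% and 2.67% of protein-coding genes. The catalase gene *ctl-1* was higher, with 3.15 and 2.097 FPKM, and the metallothionein gene *mtl-1* lower, with 3.74 and 5.68 FPKM. Heat shock protein genes had a median of -0.04 over 13 members, which was -0.05 after adjustment and 0.13 with equal totals. Of the 13, 1 was lower by 1.5-fold, against 2.67% of protein-coding genes. This was *hsp-70*, an inducible chaperone gene, with 0.651 FPKM in *ilc-17.1* mutants, against 3.63 FPKM in *malt-1* mutants, and 1.09 FPKM in *nfki-1* mutants and 1.02 FPKM in *npr-1* animals. Here the *malt-1* mutants were the high genotype.

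Several large protein machines were examined next. All 79 cytosolic ribosomal protein genes had a negative ratio, with a median log2 ratio of -0.37 and a range between -0.56 and -0.15, and 0 passed 1.5-fold. The median was -0.18 with length adjustment and -0.20 with equal totals. These genes hold a large part of the totals, so the value with equal totals is not independent of their own levels. *rpl-41.2*, the most abundant, had 16129 FPKM in *ilc-17.1* mutants, 21622 FPKM in *malt-1* mutants and 19453 FPKM in *npr-1* animals. The family's median log2 ratio to *npr-1* animals was -0.36 in *ilc-17.1* mutants and 0.0040 in *malt-1* mutants, and *nfki-1* mutants lay between *ilc-17.1* and *malt-1* mutants for 77 of the 79 genes.

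Of 65 mitochondrial ribosomal protein genes 62 had a negative ratio, with a median log2 ratio of -0.21, -0.08 after length adjustment and -0.04 with equal totals. *mrpl-44* had 221 FPKM in *ilc-17.1* and 237 FPKM in *malt-1* mutants. Of 32 proteasome genes 31 had a negative ratio, with a median of -0.24, -0.19 after length adjustment and -0.07 with equal totals, and *pas-3* had 320 FPKM in *ilc-17.1* and 400 FPKM in *malt-1* mutants. The nuclear-encoded respiratory chain had a median of -0.19 over 40 genes, -0.07 after length adjustment and -0.02 with equal totals, and *cyc-2.1*, for cytochrome c, had 2723 FPKM in *ilc-17.1* and 3152 FPKM in *malt-1* mutants. The vacuolar ATPase, another abundant machine, had a median of 0.03 over 20 genes, with and without length adjustment, 11 of them positive, and *vha-2* had 1382 FPKM in *ilc-17.1* and 1512 FPKM in *malt-1* mutants.

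Genes of regulators and signaling more often had a positive ratio. So did protein-coding genes at low levels, with a median log2 ratio of 0.13 under 3 FPKM, and the part of level was not tested. Of 154 nuclear hormone receptor genes, a large transcription factor family in *C. elegans*, 127 had a positive ratio, with a median log2 ratio of 0.16 with and without length adjustment, and 9 were at least 1.5-fold higher and 0 lower. Of all protein-coding genes, 3.76% were higher by this measure. *nhr-88* had 42.0 FPKM in *ilc-17.1* mutants against 20.5 FPKM in *malt-1* mutants and 15.02 FPKM in *npr-1* animals. *nhr-173* had 16.7 FPKM in *ilc-17.1* mutants against 9.40 FPKM in *malt-1* mutants, *nhr-209* had 5.37 against 2.69 FPKM and *nhr-270* had 3.42 against 1.32 FPKM in the same order.

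The insulin to FoxO core, which links nutrition to growth and lifespan, had a positive ratio for 14 of 15 genes, with a median of 0.27 and 0.17 after length adjustment. *ist-1*, for an insulin receptor substrate, had 6.03 FPKM in *ilc-17.1* mutants against 3.63 FPKM in *malt-1* mutants. With length adjustment 0 of the 15 passed 1.5-fold. Autophagy genes had a median of 0.28 over 20 genes and 0.19 after adjustment, and *lgg-2* had 215 FPKM in *ilc-17.1* and 175 FPKM in *malt-1* mutants. The heterochronic genes, which time development, had a median of 0.43 over 5 genes and 0.22 after adjustment, and *alg-1*, a microRNA Argonaute gene, had 41.7 FPKM in *ilc-17.1* and 33.0 FPKM in *malt-1* mutants. The 19 Argonautes had a median of 0.03, and -0.17 after adjustment, and *csr-1* had 98.1 FPKM in *ilc-17.1* and 114 FPKM in *malt-1* mutants.

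Cuticle collagen genes held 6 of 45 members that were at least 1.5-fold higher in *ilc-17.1* mutants and 0 lower, against 3.76% and 2.67% of protein-coding genes. Their median log2 ratio was 0.06, 0.16 with length adjustment and 0.23 with equal totals. *col-137* had 45.3 FPKM in *ilc-17.1* mutants against 12.7 FPKM in *malt-1* mutants, 24.1 FPKM in *nfki-1* mutants and 96.7 FPKM in *npr-1* animals. *col-143* had 51.7 FPKM in *ilc-17.1* mutants against 21.3 FPKM in *malt-1* mutants and 52.1 FPKM in *npr-1* animals. Both genes were lowest in *malt-1* mutants. At low levels, *col-135* had 1.43 against 0.607 FPKM and *dpy-14* had 1.45 against 0.740 FPKM in *ilc-17.1* and *malt-1* mutants. The adult collagen gene *col-19* had 294 FPKM in *ilc-17.1* and 249 FPKM in *malt-1* mutants, and 0 of the 3 adult collagens passed 1.5-fold, with a median of 0.09 and 0.21 after adjustment.

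The table lists many genes of the molt at 0 in all 4 genotypes, namely 21 of 24 on the molting list and 93 of 177 collagens. In all, 3264 of 19701 protein-coding genes were listed at 0 in every genotype. These groups are therefore described only in part, since a value of 0 can also be a missing estimate. The methods also say, beside the filters for the genes of a figure, that genes with oscillating developmental expression were left out. Whether this covers the deposited values is not stated, and its part in the zeros was not tested. The single molting gene described, *nekl-3*, had 23.8 FPKM in *ilc-17.1* and 27.1 FPKM in *malt-1* mutants. Transthyretin-related genes had a median of -0.02, which was 0.12 with length adjustment and 0.15 with equal totals, with 4 of 34 higher and 1 lower, against 3.76% and 2.67% of protein-coding genes. Examples are *ttr-50* at 3.56 against 1.55 FPKM, *ttr-42* at 4.00 against 2.08 FPKM and *ttr-57* at 0.857 against 1.55 FPKM in *ilc-17.1* and *malt-1* mutants. Histone genes, whose RNA mostly lacks a polyA tail, had a median of -0.37 over 25 genes, which was -0.14 with length adjustment and -0.20 with equal totals. Of these, 3 were higher and 5 lower, against 3.76% and 2.67% of protein-coding genes, and with length adjustment 3 were higher and 2 lower. *his-38* had 4.03 FPKM in *ilc-17.1* and 7.05 FPKM in *malt-1* mutants, and *his-48* had 0.636 and 2.24 FPKM.

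**Figure D4:**
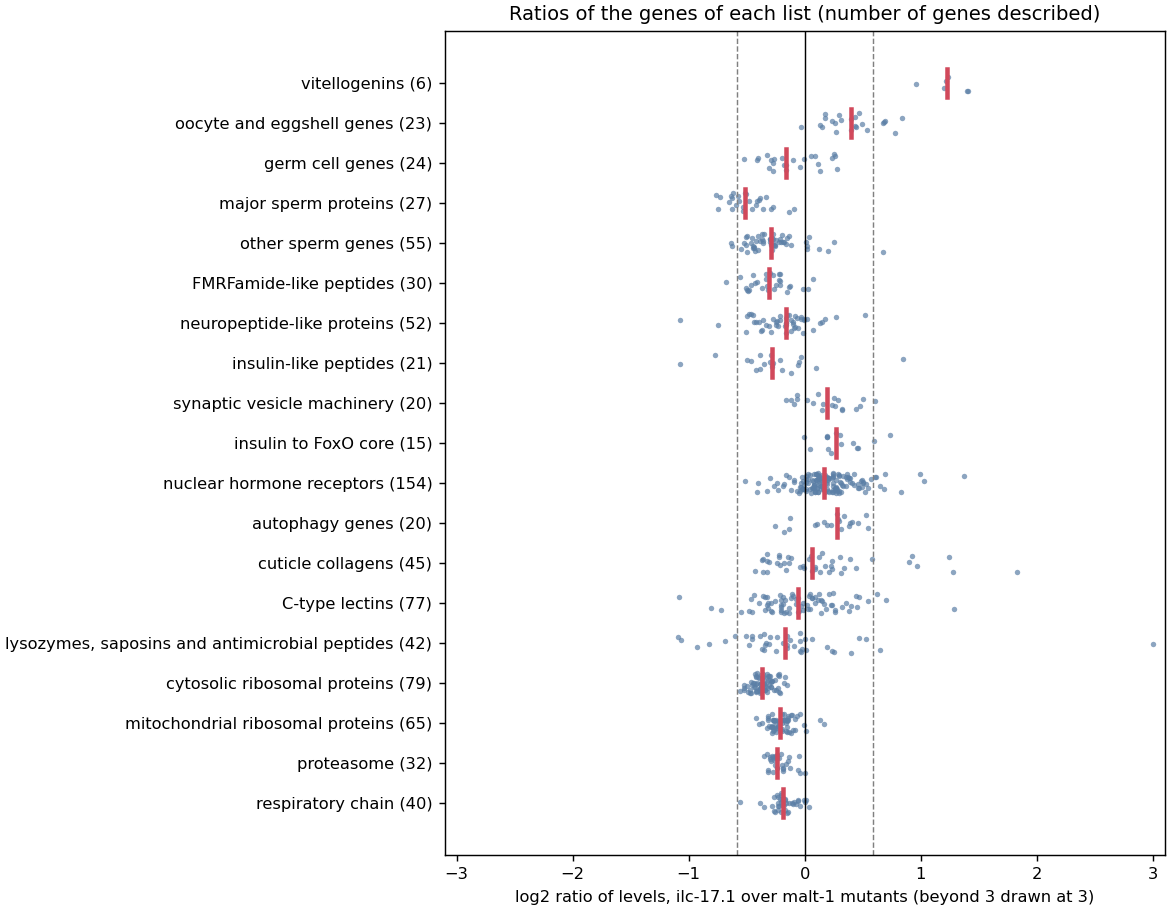
Log2 ratio of the level in *ilc-17.1* over *malt-1* mutants for each gene (points) of 19 groups, with the group's median as a red bar and the number of described genes in brackets; dashed lines mark 1.5-fold and 1 value beyond 3 is drawn at 3. The vitellogenins have a median of 1.22 with all 6 past 1.5-fold, the major sperm proteins have a median of -0.51, and all 79 cytosolic ribosomal proteins lie left of 0.

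Marker lists for tissues were read in the same way. Of 12 oocyte markers, all had a positive ratio and 5 were at least 1.5-fold higher, against 3.76% of protein-coding genes, with a median log2 ratio of 0.51 and 0.48 after length adjustment. Of 13 sperm markers 12 had a negative ratio, with a median of -0.40 and -0.25 after adjustment. Of 12 germ line markers 10 had a negative ratio, with a median of -0.27 and -0.30 after adjustment, and *glh-1*, for a helicase of P granules, had 161 FPKM in *ilc-17.1* and 214 FPKM in *malt-1* mutants. These lists share genes with the germ line groups above, and their part in the yolk result was not tested.

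Markers of somatic tissues varied in direction. The 9 intestinal markers had a median of -0.0028, which was -0.00097 after length adjustment and 0.17 with equal totals, and the 12 neuronal markers had a median of 0.03 and 0.0075 after adjustment. The protease gene *asp-1* of the intestine had 2803 FPKM in *ilc-17.1* and 2907 FPKM in *malt-1* mutants. The 8 muscle markers had a median of 0.24 with long transcripts of a median of 4764 bases, and 0.14 after length adjustment, and *lev-11*, for tropomyosin, had 2386 FPKM in *ilc-17.1* and 2203 FPKM in *malt-1* mutants. The 5 hypodermal markers had a median of 0.28, and 0.23 after adjustment, and 1 of them, *elt-3*, passed 1.5-fold, with 1.14 FPKM in *ilc-17.1* and 0.565 FPKM in *malt-1* mutants. The 8 markers of the somatic gonad and vulva had a median of 0.18 and 0.14 after adjustment, with *cdh-3* at 2.99 FPKM in *ilc-17.1* and 1.81 FPKM in *malt-1* mutants. The 5 coelomocyte markers had a median of -0.23 and -0.26 after adjustment, with *cup-2* at 179 FPKM in *ilc-17.1* and 195 FPKM in *malt-1* mutants.

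The largest single differences were read from the genes at 5 FPKM or more in at least 1 genotype. Of the 12 highest and 12 lowest ratios, 20 belonged to genes other than protein-coding ones, all with transcripts of at most 165 bases. Examples are *M01H9.7*, with 35.0 FPKM in *ilc-17.1* mutants against 1.71 FPKM in *malt-1* mutants, *ZK809.10*, with 35.5 against 3.03 FPKM, and *ZK1128.9*, with 13.4 against 1.42 FPKM. Lower were *B0511.18*, with 4.85 FPKM in *ilc-17.1* mutants against 42.1 FPKM in *malt-1* mutants, and *CD4.14*, with 2.16 against 17.6 FPKM. The most extreme ratios paired a level close to 0 with one above 5 FPKM, as for *F44E2.12*, with 58.6 FPKM in *ilc-17.1* mutants and 0.0420 FPKM in *malt-1* mutants.

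A second reading, of protein-coding genes alone, was chosen after the values were seen. The highest ratio was that of *W09C2.7* (chromosome IV, 9621994 to 9622372), with 16.4 FPKM in *ilc-17.1* mutants against 0.769 FPKM in *malt-1* mutants, 21.4-fold, 0.409 FPKM in *nfki-1* mutants and 18.1 FPKM in *npr-1* animals. Its neighbor *W09C2.9* (9622925 to 9623365) had 3.82 FPKM in *ilc-17.1* and 0.336 FPKM in *malt-1* mutants, and 1.28 FPKM in *npr-1* animals. *W09C2.8* (9624035 to 9624392) had 2.23 FPKM in *ilc-17.1* and 0.272 FPKM in *malt-1* mutants, and 1.31 FPKM in *npr-1* animals. Both neighbors were thus highest in *ilc-17.1* mutants, while *W09C2.7* was highest in *npr-1* animals. *F59C6.18* (chromosome I, 10516036 to 10516432) had 13.3 FPKM in *ilc-17.1* mutants against 2.04 FPKM in *malt-1* mutants, 2.09 FPKM in *nfki-1* mutants and 151 FPKM in *npr-1* animals. In these cases the *malt-1* and *nfki-1* mutants were both low.

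A further stretch on chromosome V, also chosen after its values were seen, held genes with their highest level in *npr-1* animals. *exh-1* (3157077 to 3157870) had 35.9 FPKM in *ilc-17.1* mutants against 15.1 FPKM in *malt-1* mutants, 14.4 FPKM in *nfki-1* mutants and 140 FPKM in *npr-1* animals. *C36C5.12* (3158406 to 3159165) had 5.13 against 1.89 FPKM in *ilc-17.1* and *malt-1* mutants and 33.1 FPKM in *npr-1* animals. *C36C5.14* (3164675 to 3165515) had 1.39 against 0.311 FPKM in *ilc-17.1* and *malt-1* mutants and 21.6 FPKM in *npr-1* animals. All 3 neighbors were highest in *npr-1* animals, next in *ilc-17.1* mutants and lowest in *malt-1* and *nfki-1* mutants.

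Among more abundant genes, *ocr-1*, which encodes a TRPV channel subunit, had 64.3 FPKM in *ilc-17.1* mutants against 13.4 FPKM in *malt-1* mutants, 4.80-fold, 39.7 FPKM in *nfki-1* mutants and 90.1 FPKM in *npr-1* animals. *F48E8.8* had 62.6 FPKM in *ilc-17.1* mutants against 13.8 FPKM in *malt-1* mutants, 4.53-fold, and 47.9 FPKM in *npr-1* animals. *C17B7.14* had 30.2 FPKM in *ilc-17.1* mutants against 7.15 FPKM in *malt-1* mutants, and *C35E7.6* had 15.1 against 3.99 FPKM in the same order. *Y38F2AL.12* had 7.24 FPKM in *ilc-17.1* mutants against 0.518 FPKM in *malt-1* mutants, with 6.08 FPKM in *nfki-1* mutants and 7.005 FPKM in *npr-1* animals. *Y22D7AR.3*, *F35F10.5* and *H03A11.2* complete the 12, with 5.01, 6.80 and 5.35 FPKM in *ilc-17.1* mutants against 1.58, 2.35 and 1.95 FPKM in *malt-1* mutants.

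At the other end, *nspe-1*, of a nematode-specific peptide family, had 3.84 FPKM in *ilc-17.1* mutants against 28.5 FPKM in *malt-1* mutants, 7.42-fold lower, and 18.4 FPKM in *npr-1* animals. *Y69A2AR.24* had 18.8 FPKM in *ilc-17.1* mutants against 89.3 FPKM in *malt-1* mutants, and *Y69A2AR.51* had 19.9 against 73.6 FPKM in the same order. Both have annotated transcripts under 80 bases, 78 and 75, and lay near the *ilc-17.1* level in *npr-1* animals, with 14.7 and 24.6 FPKM. In *nfki-1* mutants they had 66.4 and 105 FPKM. *Y102A5C.36* had 9.30 FPKM in *ilc-17.1* mutants against 31.1 FPKM in *malt-1* mutants and 38.4 FPKM in *npr-1* animals. *H39E20.1* was high only in *malt-1* mutants, with 1.99 FPKM in *ilc-17.1* mutants, 6.71 FPKM in *malt-1* mutants, 1.67 FPKM in *nfki-1* mutants and 1.43 FPKM in *npr-1* animals. The other 7 included 2 genes of the mitochondrial genome, and their ratios were between 3.21-fold lower for *ZK792.12* and 2.42-fold lower for *ND6*.

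**Figure D5:**
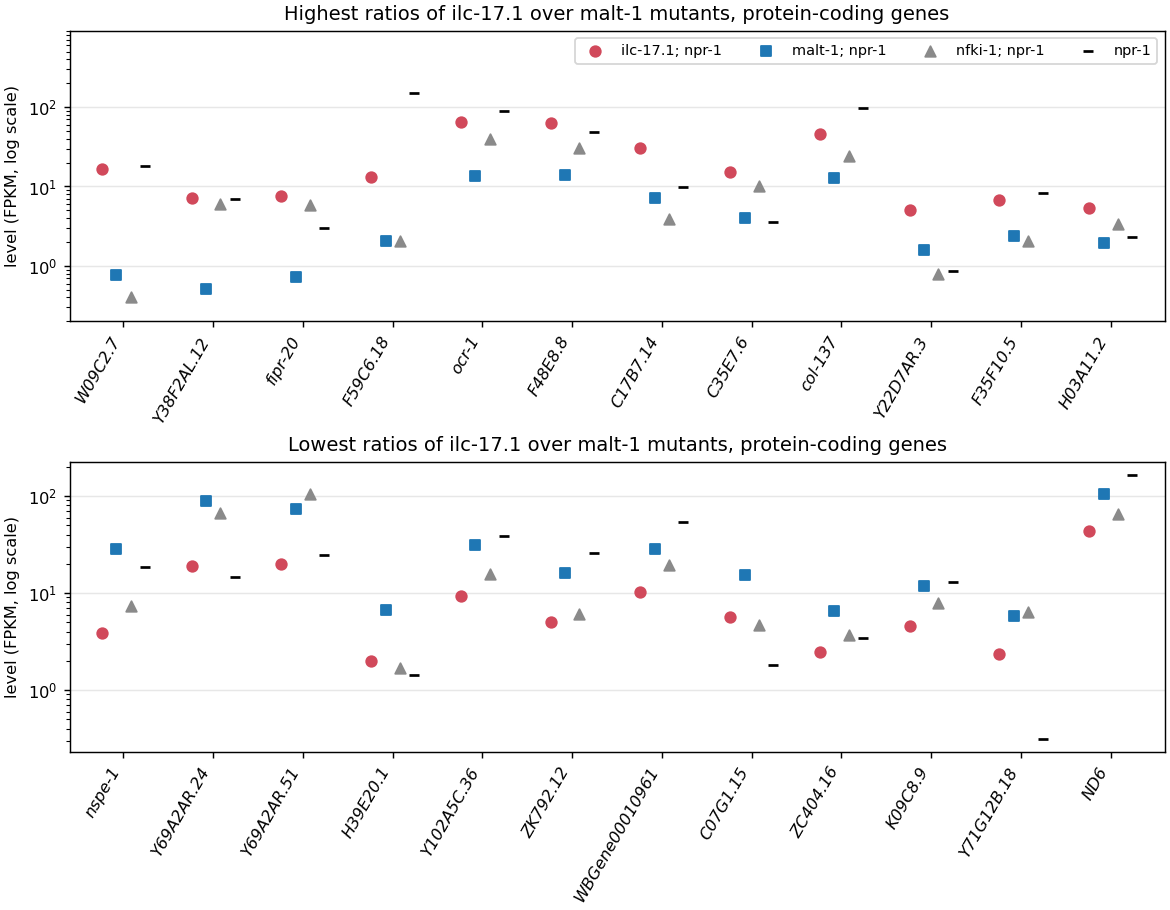
Levels in FPKM, on a log axis, of the 12 protein-coding genes with the highest (top) and the 12 with the lowest (bottom) ratio of *ilc-17.1* over *malt-1* mutants among those at 5 FPKM or more in either, for the 4 genotypes, with 1 value per genotype and no error. *W09C2.7* is high in *ilc-17.1* mutants (16.4 FPKM) and *npr-1* animals (18.1 FPKM), and *nspe-1* is lowest in *ilc-17.1* mutants (3.84 FPKM).

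Last, the levels were set beside those of *npr-1* animals. The values of *npr-1* animals come from separate comparisons that share the mutants' samples. Of the 450 protein-coding genes that were at least 1.5-fold higher in *ilc-17.1* mutants, *npr-1* animals lay between the mutants for 242 (53.8%), below both for 147 (32.7%) and above both for 61 (13.6%). Of the 320 that were at least 1.5-fold lower, *npr-1* animals lay between the mutants for 192 (60%), above both for 69 (21.6%) and below both for 59 (18.4%). *malt-1* mutants were within 0.32 of *npr-1* animals on the log2 scale, and *ilc-17.1* mutants not, for 39.6% of the 450 and 34.4% of the 320. The reverse, with *ilc-17.1* mutants within 0.32 and *malt-1* mutants not, held for 25.3% and 32.5%.

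The *nfki-1* mutants lay between *ilc-17.1* and *malt-1* mutants for 307 of the 450 higher genes (68.2%) and for 190 of the 320 lower genes (59.4%). These genes were chosen by their gap between *ilc-17.1* and *malt-1* mutants, which by itself favors another genotype lying between them. This limits the shares for *npr-1* animals and for *nfki-1* mutants alike. No such share was computed over all protein-coding genes. The vitellogenins, with *npr-1* animals below both mutants in 6 of 6 genes, differed in this from the oocyte and *msp* genes, where *npr-1* animals mostly lay between.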

How the data were processed

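RNA of whole late L4 animals was sequenced by the authors from polyA-selected stranded libraries as 50-base single-end reads, and the processing notes name Trim Galore 0.4.3, TopHat2 2.1.0, Cufflinks 2.2.1 and Cuffdiff. The deposited table holds 7 comparisons of 2 genotypes, each with 1 FPKM value per genotype and gene, which the authors' tool estimated from all samples of a genotype and scaled within the comparison. Its columns of fold change, test statistic, p-value and q-value are the authors' own results and were not used. It has 0 columns of values per sample, so the depth and the error of a value are unknown.

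Ratios of *ilc-17.1* over *malt-1* mutants were computed without a pseudocount (Python 3.11.15, pandas). The name ilk17 in the table was taken as *ilc-17.1*, the only genotype of the labels left for it. The same 2 genotypes in reversed order gave equal values for all genes but 1, *ZK180.8*. In the comparisons with *npr-1* animals the median level was lower by 0.25% in *ilc-17.1* and by 1.43% in *malt-1* mutants. No test across samples was planned, because the table holds 1 value per genotype, and counts past 1.5-fold and medians of gene groups are given. The code that counts genes past 1.5-fold and adjusts for length was tried on simulated data with known changes. This checks the code only, not the error of the real values. Gene types, transcript lengths and 43276 names came from Ensembl release 115 and a table of gene names, and loci are those of the deposited table with starts written 1-based. Of the genes found in Ensembl, 90.2% lay within their deposited locus, with a margin of 50 bases. A transcript length can therefore differ from the one behind the FPKM.

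The comparison, the 51 gene lists and the 6 added later were chosen with earlier results of these data known. Named genes are those of the IL-17 pathway, the *vit* genes, the 12 highest and 12 lowest ratios at 5 FPKM or more, and in each list up to 4 members past 1.5-fold in each direction or, where there are none, the most abundant member; others were chosen after their values were seen. Some genes that this rule names are not reported here. Alternatives were other minimum levels, pseudocounts of 1 and 0.1, centring, the reversed rows, values from the comparisons with *npr-1* animals, tested or protein-coding genes alone, other folds, equal totals, length adjustment and transcripts of at least 200 bases.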

Additional observations from a re-analysis of the deposited data

How the results depend on the processing

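The main counts were 852 genes at least 1.5-fold higher and 516 lower in *ilc-17.1* mutants. They became 397 and 264 with a minimum of 5 FPKM, 2246 and 1322 with no minimum, 431 and 264 for genes that the authors' tool marked as tested, 450 and 320 for protein-coding genes, 345 and 188 at 2-fold and 2251 and 1762 at 0.32 on the log2 scale. With 0.1 added to both values 806 were lower, and with transcripts of at least 200 bases 564 were higher. The length limit and the next alternatives were chosen after seeing the data. Among them, equal totals depend in part on the cytosolic ribosomal protein genes. With equal totals the counts were 1563 and 312 and the median of all genes was 0.17, and the group medians were 1.39 for vitellogenins, 0.57 for oocyte and eggshell genes, 0.34 for nuclear hormone receptors, -0.14 for FMRFamide-like peptides, -0.34 for major sperm proteins and -0.20 for cytosolic ribosomal proteins. With length adjustment of protein-coding genes the counts were 508 and 202, and the medians were 0.94, -0.14, -0.29 and -0.18 for vitellogenins, FMRFamide-like peptides, major sperm proteins and cytosolic ribosomal proteins. Of 51 group medians, 10 changed sign with equal totals and 6 with length adjustment. With 5 FPKM as the minimum 2 changed sign, 1 did with values from the comparisons with *npr-1* animals, and 0 under the other alternatives. No paired analysis was possible because the table holds no value per sample, for which reason leaving out a replicate was not run either. The promoter motif search was not run, as no sequence was used here. Depth and error remain unknown, so a small or low-level difference cannot be weighed.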

Other observations

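The following groups were chosen after their values were seen and got no test. The 12 protein-coding genes of the mitochondrial genome, which encode subunits of the respiratory chain, were all lower in *ilc-17.1* mutants, 7 of them by at least 1.5-fold, against 2.67% of protein-coding genes, with a median log2 ratio of -0.63 and -0.59 after length adjustment. *ND6* had 43.5 FPKM in *ilc-17.1* mutants, 64.9 FPKM in *nfki-1* mutants, 105 FPKM in *malt-1* mutants and 165 FPKM in *npr-1* animals. *ND1* had 677 FPKM in *ilc-17.1* mutants against 1039 FPKM in *malt-1* mutants, and *COX3* had 1715 against 2351 FPKM. Mitochondrial RNA reaches a polyA-selected library unevenly, and its part in these values was not tested.

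Genes on chromosome X had a median log2 ratio of 0.10 over 1561 protein-coding genes, and 0.08 after length adjustment, against medians between -0.05 and -0.00032 on the autosomes. On X, 6.98% were at least 1.5-fold higher in *ilc-17.1* mutants, against 2.02% to 5.36% on the autosomes, and 5 of the 6 *vit* genes lie there.

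The *frpr* and *dmsr* families of peptide receptors had a median log2 ratio of 0.24 over 22 genes and 0.23 after length adjustment, opposite in sign to the FMRFamide-like peptides. Of the 22, 2 were higher and 0 lower by 1.5-fold, against 3.76% and 2.67% of protein-coding genes. Their levels were at most 12.3 FPKM, and protein-coding genes under 3 FPKM had a median of 0.13. The part of level in this contrast was not tested. *frpr-11* had 6.83 FPKM in *ilc-17.1* mutants against 3.93 FPKM in *malt-1* mutants. Homeobox genes named *ceh* had a median of 0.19 over 42 genes and 0.20 after length adjustment, with *ceh-9* lower, at 1.099 against 2.45 FPKM. Nucleoporins had a median of -0.09 over 25 genes and -0.21 after length adjustment, translation initiation factors named *eif* -0.17 over 25 and -0.20, and the CCT chaperonin -0.16 over 8 and -0.21, with 0 of any of these past 1.5-fold. With equal totals the medians of the nucleoporins, the *eif* genes and the chaperonin became 0.08, 0.00080 and 0.010.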
